A study of Mus musculus with 2 samples.

Results

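The S100 proteins and the annexins are calcium-binding proteins that often act together, and their genes were followed in niche astrocytes cultured from the dentate gyrus (DG) of wild-type (WT) and β-arr1 KO mice. The members were all genes whose symbol was S100a with a number, S100g or Anxa with a number in the table of either library. They numbered 23 of the 16302 genes listed, with 13 S100 genes and 10 annexin genes. S100b, which the study stained to judge the purity of its cultures, was not a member and is given only as a comparison. S100a9, Anxa9 and Anxa13, which complete the 26 such genes of the GENCODE annotation, were not analysed here.

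S100 proteins are small EF-hand proteins that mostly form dimers, bind calcium and then dock onto target proteins inside the cell, and some are also released and act on receptors. Annexins bind acidic phospholipids of membranes in a calcium-dependent way and take part in membrane trafficking, repair and links to the actin cytoskeleton. Several S100 dimers hold a pair of annexin molecules together, the best known being S100a10 (p11) with annexin A2 and S100a11 with annexin A1. In the nervous system many of these genes are found in glia, and several rise in reactive astrocytes.

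The data are RNA sequencing of a WT and a β-arr1 KO library, 1 of each, both of the C57BL/6 strain. Each was made from pooled cDNA of astrocytes that were isolated from adult DG and cultured in serum-containing medium, with other cells shaken off before RNA was taken. The KO mice carry the β-arr1-/- genotype in the whole animal and not in astrocytes alone, and the WT mice were the only control. Levels are FPKM, which counts fragments per kilobase of transcript and scales them to the depth of the library. The deposited tables hold values above 0 only, for 15417 rows in WT and 15457 rows in KO, and no counts. The depth read from the steps between low values was about 9.54 M fragments in WT and 9.82 M in KO. A single library stands for each genotype and the spread between animals is unknown, so no difference below was tested for genotype and no p-value exists. Intervals of ratios are 95% Clopper-Pearson intervals from estimated fragments and cover counting error only.

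As a check of the labels, Arrb1, the gene of β-arrestin 1, was at 7.62 in WT and 2.72 FPKM in KO, giving a ratio of 0.358. All 10 astrocyte markers examined were listed in both libraries, with Gfap at 189 FPKM and 192 FPKM, and their summed level was 396 FPKM and 420 FPKM. Of these markers 4 were above 3/2 (Aqp4 at a ratio of 1.92, S100b at 1.77, Aldoc at 1.60 and Slc1a2 at 1.58) and none was below 2/3, and the median log2 ratio of the list was 0.34. Over all 12646 genes at 1 FPKM or more in a library, 9.56% were above 3/2 and 8.28% below 2/3. Markers of other cells were present too. Their summed levels in WT and KO were 626 and 335 FPKM for 8 fibroblast genes, 488 and 403 FPKM for 8 microglial genes and 5705 and 5357 FPKM for 5 genes of smooth muscle and pericytes. The sums were 81.7 and 104 FPKM for neurons, 26.6 and 31.7 FPKM for oligodendrocytes, 17.8 and 28.0 FPKM for ependyma and 2.46 and 0.393 FPKM for epithelium. Of the fibroblast list, 4 of 7 analysed genes were below 2/3 and Pdgfra was above 3/2, and Lum was listed in WT only. The Y-linked genes Ddx3y and Eif2s3y were listed in KO only, at 2.47 and 4.53 FPKM, so that sex and genotype cannot be told apart. The part of these cell types and of sex in the values below was not tested.

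S100 and annexin transcripts were abundant in both libraries. In WT, 10 members were above 100 FPKM, and in KO 11 members were, while 3.80% of all listed genes passed this level in WT and 3.91% in KO. Among the 100 highest genes, 7 were members in WT and 6 in KO. Together the members held 1.80% of the FPKM sum in each library, with 6752 in WT and 6725 FPKM in KO, giving a ratio of 0.996. The S100 genes summed to 4233 in WT and 4410 FPKM in KO (ratio 1.04). The annexin genes summed to 2519 FPKM and 2315 FPKM (ratio 0.919). The S100 sum was thus slightly higher and the annexin sum slightly lower in KO. The single gene S100a4, at 583 in WT and 799 FPKM in KO, rose by more than the whole S100 sum. The higher S100 sum therefore rested on this gene, whose KO row also covers S100a3. In bulk RNA of this kind, fewer cells of a type and less RNA per cell cannot be told apart.

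**Figure D1:**
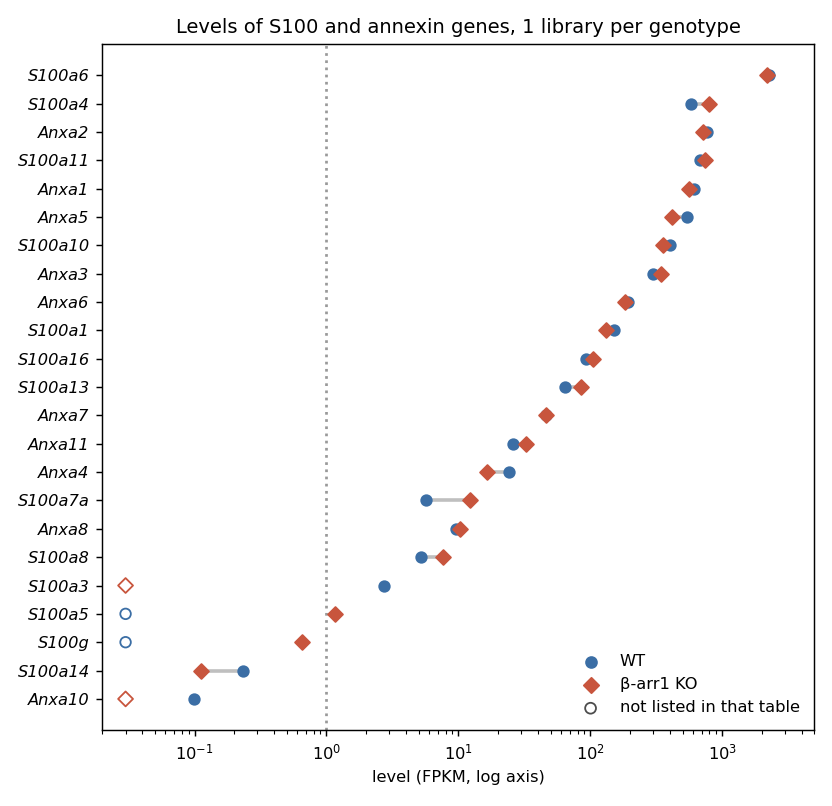
Level of each of the 23 S100 and annexin genes in FPKM on a log axis, with a circle for the WT library and a diamond for the β-arr1 KO library. Open symbols at the left edge mark genes with no row in that table, and the dotted line is 1 FPKM. The levels run from S100a6, at 2247 in WT and 2173 FPKM in KO, down to genes below 1 FPKM, and most pairs of symbols nearly touch.

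S100a6, or calcyclin, was the highest member. It was at 2247 in WT and 2173 FPKM in KO, which ranked it 12th and 9th among all genes, and it made up 53.1% and 49.3% of the S100 sum. Next by mean level came Anxa2, whose protein binds membranes, actin and S100a10, with 764 in WT and 711 FPKM in KO. S100a11, the partner of annexin A1, was at 676 FPKM and 738 FPKM. S100a4, or metastasin, which binds non-muscle myosin, was at 583 FPKM and 799 FPKM, and it was the only one of these with a ratio far from 1. The upstream sequences of these 4 genes are shown because they start the most abundant transcripts of the families. Each line gives the 150 bases before the GENCODE start of the gene in NCBIM37 (mm9), in the direction of transcription. Capitals mark a TATA box (TATAAA) or an AP-1 site (TGACTCA, here read on the other strand as TGAGTCA), and both motifs were searched on both strands.

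S100a6 (chr3:90416666-90416815, plus strand): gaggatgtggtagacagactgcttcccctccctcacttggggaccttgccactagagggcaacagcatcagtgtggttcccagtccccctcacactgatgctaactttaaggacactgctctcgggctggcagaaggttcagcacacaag
Anxa2 (chr9:69301277-69301426, plus strand): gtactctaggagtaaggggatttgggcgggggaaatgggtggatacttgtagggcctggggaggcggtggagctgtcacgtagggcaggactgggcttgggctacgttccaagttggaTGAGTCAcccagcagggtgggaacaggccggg
S100a11 (chr3:93324260-93324409, plus strand): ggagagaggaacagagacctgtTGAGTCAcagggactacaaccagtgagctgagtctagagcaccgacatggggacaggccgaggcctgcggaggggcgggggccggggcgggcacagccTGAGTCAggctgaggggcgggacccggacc
S100a4 (chr3:90407542-90407691, plus strand): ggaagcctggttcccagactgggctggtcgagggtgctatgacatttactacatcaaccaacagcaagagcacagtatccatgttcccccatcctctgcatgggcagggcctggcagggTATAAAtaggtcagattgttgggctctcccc

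The S100a4 window holds a TATA box whose first base is 31 bases before the start. The Anxa2 window holds an AP-1 site 32 bases before the start, and the S100a11 window holds AP-1 sites 128 and 30 bases before it. The S100a6 window holds neither motif. Over the windows of all 23 members, 3 held a TATA box (S100a4, S100a8 and Anxa10) and 3 held an AP-1 site (S100a11, Anxa2 and Anxa10), compared with 7.89% and 2.40% of the windows of 22235 protein-coding genes. Anxa10, whose window is not printed, thus held both motifs. The first base of its TATAAA match was 107 bases before the start, and that of S100a8 was 30 bases before it. The median GC content was 58% in members and 56.7% in all genes, and the median number of CpG pairs was 2 and 6. The deposited Anxa2 row starts at position 69301490 of chromosome 9, downstream of the GENCODE start at 69301427. A match of letters describes the window only.

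The comparison between genotypes asked whether the loss of β-arr1 went with changed levels of these genes. The β-arr1 KO vs. WT ratio was computed for genes at 1 FPKM or more in at least one library, and the limits of the study, 3/2 and 2/3, were used to call a gene past. Of the 20 members analysed, 3 were past the limits. S100a7a and S100a5 were higher in KO and S100a3 was lower, and 17 members lay within the limits. Of all 12646 genes analysed, 17.8% were past the limits, with 9.56% above 3/2 and 8.28% below 2/3. Genes listed in 1 table count as past in this share. The study reported a smaller share of its genes as changed at the same limits. The share of members, 15%, was near the 17.8% found here by the same counting, so it is not a result about the members.

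Among the 18 members analysed that were listed in both tables, 1 was past the limits, S100a7a, compared with 14.6% of the 12171 such genes. Ratios were above 1 in 9 members and below 1 in 9. With overlapping rows summed, S100a1 moved above 1, and the counts became 10 and 8. The median log2 ratio was 0.04 over the members, or 0.09 with rows summed, and 0.02 over all such genes. It was 0.17 over the S100 genes, of which 6 of 9 were above 1 (7 of 9 with rows summed), and -0.08 over the annexins, of which 6 of 9 were below 1. At a mean of 20 FPKM or more there were 15 members, none of them past the limits, with ratios from 0.679 to 1.37, and 7.8% of the 3680 genes at this level were past. These 15 rested on 337 to 11770 estimated fragments in a library, with the length of the longest coding transcript. With the shortest, Anxa4 came to 119 fragments in WT and 83 in KO. The counting interval left out 1 in 15 of the 18 members and included it in Anxa7, Anxa8 and S100a8. Among the 15 was S100a1, whose WT row also covers a neighbouring gene, and no interval was computed for its summed rows. With the shortest coding transcript, the interval of S100a16, 0.937 to 1.35, included 1 as well. Such an interval compares these libraries and not the genotypes.

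**Figure D2:**
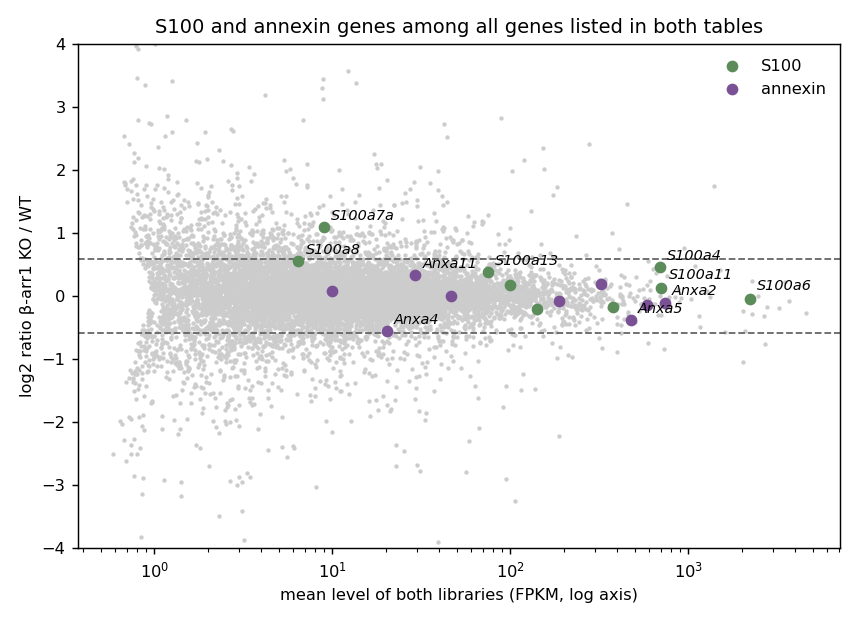
Log2 ratio of β-arr1 KO to WT against the mean level of both libraries in FPKM (log axis), for genes listed in both tables at 1 FPKM or more in at least one. Grey dots are all genes, coloured dots are S100 and annexin genes, dashed lines are the limits 3/2 and 2/3, and ratios past 4 or -4 on the log2 scale are outside the axis. The members lie mostly at the right, at high levels, and S100a7a alone is above the upper line.

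**Figure D3:**
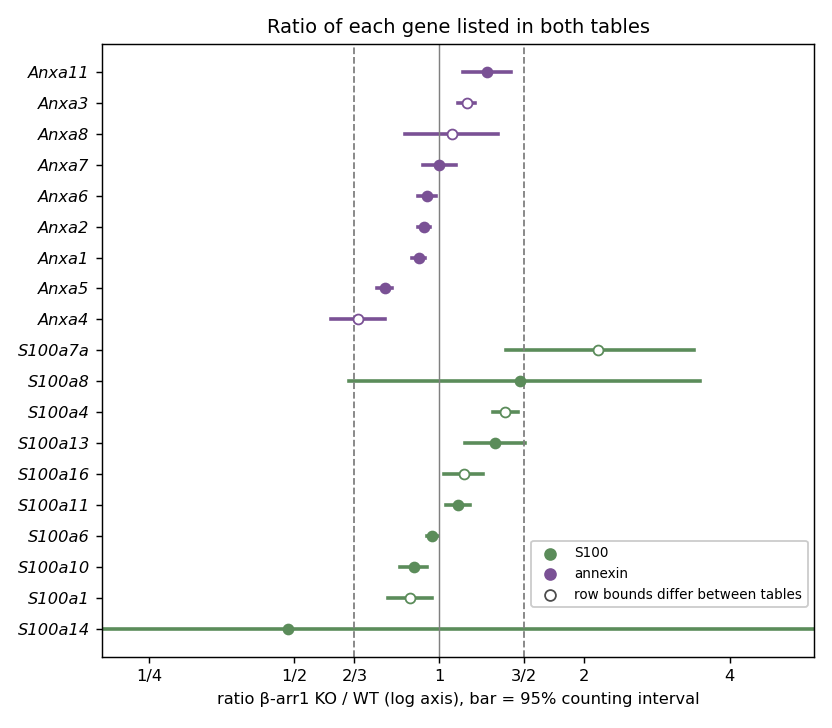
Ratio of β-arr1 KO to WT (log axis) for the 19 S100 and annexin genes listed in both tables, with 95% counting intervals as bars. Dashed lines are the limits 3/2 and 2/3, filled dots have the same row bounds in both tables and open dots do not, and the interval of S100a14 runs beyond the axis. The bars are short for the abundant genes and long for S100a7a, S100a8 and S100a14.

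S100a7a, a mouse relative of the skin protein psoriasin, had the highest ratio of the members listed in both tables. Its level was 5.70 in WT and 12.2 FPKM in KO, giving a ratio of 2.13 (counting interval 1.38 to 3.38) from about 31 and 68 fragments. This ratio stood at the 97.6th percentile of all genes. The gene (NCBI gene 381493) lies at chr3:90458224-90462052 on the plus strand in GENCODE, and its deposited rows were not the same, with chr3:90457896-90462880 in WT and chr3:90457765-90462513 in KO. The row began 328 bases before the GENCODE start in WT and 459 bases before it in KO, and it ran 828 and 461 bases past the end. The values therefore come from different row lengths, and the effect of this on the ratio was not tested.

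S100a8, which with S100a9 forms the calprotectin of neutrophils and other myeloid cells, was close to the upper limit without passing it. It was at 5.22 in WT and 7.67 FPKM in KO, giving a ratio of 1.47 from about 11 and 17 fragments. Its interval, 0.650 to 3.47, was wide enough that a difference was not detectable at this depth. Of 8 neutrophil markers 4 were listed, none at 1 FPKM, with a summed level of 1.06 in WT and 0.254 FPKM in KO. Elane was listed in WT only and Ltf in KO only.

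S100a4 had the highest ratio among the abundant members. It was at 583 in WT and 799 FPKM in KO, giving a ratio of 1.37 (1.29 to 1.46) at the 88.5th percentile of all genes. Its rows differed, since the KO row ran over S100a3 as well (chr3:90404137-90409967), while WT had a row for S100a3 (chr3:90404137-90406624) and another for S100a4 (chr3:90407692-90409967). S100a3, best known from the hair cuticle, was at 2.71 FPKM in WT from about 14 fragments. KO had no row for S100a3, and 3 fragments there would correspond to 0.564 FPKM. Because the KO row covers both genes, the lower call of S100a3 cannot be told apart from this joining. Summed over both genes the level was 586 in WT and 799 FPKM in KO, giving a ratio of 1.36. S100a4 is also expressed by fibroblasts, whose summed markers were lower in KO, with the values given above.

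S100a5, known from olfactory neurons, was listed in KO only, at 1.15 FPKM from about 3 fragments. Since 3 fragments in WT would correspond to 1.20 FPKM, no difference was detectable at this depth. S100g, the vitamin D-dependent calbindin of the intestine, was below the minimum and listed in KO only, at 0.650 FPKM from about 2 fragments, within the row of Ctps2. S100a14, an epithelial S100 gene, was at 0.231 FPKM and 0.112 FPKM from about 2 and 1 fragments. Anxa10, known from the stomach, was listed in WT only, at 0.0993 FPKM from about 2 fragments. These genes were at or near the floor of detection in both libraries.

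The remaining S100 genes lay within the limits. S100a10, which carries membrane proteins to the cell surface with annexin A2, was at 403 in WT and 356 FPKM in KO (ratio 0.885, 0.830 to 0.944). S100a11 had a ratio of 1.09 (1.03 to 1.16), and S100a6 one of 0.967 (0.942 to 0.992). S100a16, a widely expressed member, was at 93.5 FPKM and 105 FPKM, a ratio of 1.12. S100a13, which takes part in the release of FGF1, was at 64.7 FPKM and 84.5 FPKM, a ratio of 1.31 (1.13 to 1.51).

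S100a1, known for its action on calcium handling in muscle, was at 152 in WT and 132 FPKM in KO, giving a ratio of 0.870 (0.782 to 0.968). The direction of this ratio depended on a neighbour. The WT row of S100a1 (chr3:90302880-90318252) ran over Chtop, a gene of mRNA export that had no row in WT, while KO had separate rows for S100a1 (chr3:90314956-90318252) and for Chtop at 30.6 FPKM. With the overlapping rows summed, the ratio was 1.07.

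S100a1 and S100a13 are neighbours that are read in opposite directions from starts that lie 42 bases apart in GENCODE. The bases between the starts are shown because a single short stretch lies upstream of both genes.

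S100a1 and S100a13 (chr3:90318315-90318356, plus strand): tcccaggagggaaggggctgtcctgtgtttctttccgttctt

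From these starts, S100a1 had a ratio below 1 and S100a13 one above 1 when each row was taken alone. The level of S100a1 divided by that of S100a13 was 2.34 in WT and 1.56 in KO. With the Chtop row of KO added to S100a1, whose WT row covers both genes, it was 1.92 in KO.

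The neighbouring S100 genes of chromosome 3 differed widely in level. The 10 members from S100a1 to S100a8 lie within 159 kb, and S100a11 and S100a10 follow 2850 kb further along. S100a3, S100a4, S100a5 and S100a6 are separated by only 1067, 2477 and 1113 bases. In WT the level of S100a4 was 215 times that of S100a3, the gene just before it, and S100a5 had no row between S100a4 and S100a6. S100a14, at the levels given above, lies between S100a13 and S100a16, whose levels ranged from 64.7 to 105 FPKM. Genes of high and of low level thus lay side by side.

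**Figure D4:**
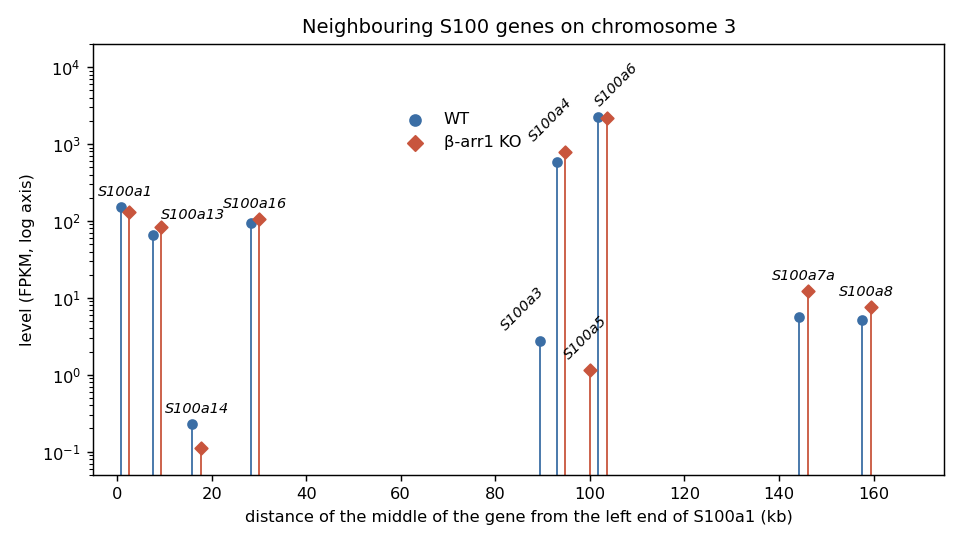
Level in FPKM (log axis) of the 10 S100 genes that lie within 159 kb of chromosome 3, against the distance in kb of the middle of each gene from the left end of S100a1. Circles are WT and diamonds are β-arr1 KO, set slightly apart, and a missing symbol means no row in that table. S100a4 stands high beside S100a3, shown in WT only, and S100a5, shown in KO only, both at low levels. S100a6 stands highest just beyond S100a5. The order of levels is the same in both libraries for genes with a symbol in each.

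Of the annexins, all 9 analysed lay within the limits. Anxa4, which is found in epithelia and on vesicles, had the lowest ratio, 0.679 (0.596 to 0.772), with 24.2 in WT and 16.4 FPKM in KO. Its interval included the lower limit, and its rows differed by a few bases at the lower coordinate, the far end of this minus-strand gene. Anxa5, which binds phosphatidylserine and is widely used to stain dying cells, was at 539 in WT and 415 FPKM in KO, giving a ratio of 0.770 (0.744 to 0.796) from about 7755 and 6144 fragments. This ratio stood at the 11.7th percentile of all genes, and Anxa5 was the abundant annexin with the lowest ratio.

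Anxa1, a protein with anti-inflammatory actions through formyl peptide receptors, was at 615 FPKM and 557 FPKM, a ratio of 0.907 (0.880 to 0.935). Anxa2 had a ratio of 0.931 (0.904 to 0.958). Anxa6, which has a doubled annexin core and links membranes to the cytoskeleton, was at 194 FPKM and 183 FPKM, a ratio of 0.944. These 3 were all slightly lower in KO.

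Anxa7, or synexin, which promotes membrane fusion, was at 46.4 FPKM in both libraries, a ratio of 0.999 (0.923 to 1.08). Higher values in KO were those of Anxa3, with 301 in WT and 343 FPKM in KO (ratio 1.14, 1.09 to 1.19), and Anxa11, with 26.0 FPKM and 32.6 FPKM (ratio 1.25, 1.12 to 1.41). Annexin A11 is a partner of S100a6 and tethers RNA granules to lysosomes. Anxa8 was the lowest annexin above the minimum, at 9.63 FPKM and 10.2 FPKM (ratio 1.06, 0.849 to 1.33).

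Levels of members were also set against each other, for known partners and for other pairs. The level of S100a10 was 0.527 times that of Anxa2 in WT and 0.501 times in KO, nearly the same proportion in both. Anxa1 and S100a10, not named here as partners, also kept theirs, at 1.53 in WT and 1.56 in KO. A steady proportion was thus not particular to S100a10 with Anxa2. The level of Anxa1 relative to its partner S100a11 was 0.909 in WT and 0.755 in KO. That of Anxa11 relative to its partner S100a6 was 0.0116 in WT and 0.0150 in KO. Among other pairs not named as partners, S100a6 was 3.85 times S100a4 in WT and 2.72 times in KO. S100a4 was 1.45 times S100a10 in WT and 2.24 times in KO. The proportions with S100a4 carry the difference in its row noted above.

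Row bounds were the same in both tables for 11 of the 18 members listed in both and differed for 7, of which S100a7a was past the limits. Over all genes listed in both tables, 13.8% of 7338 with the same bounds and 15.8% of 4833 with differing bounds were past, so that the shares were close. Transcript length moved with the calls. Among genes with a transcript of 750 bases or less, 25.5% of 321 were past the limits, compared with 13.2% of 6077 genes longer than 3000 bases. The short class held 8 members, S100 genes, and the longest class none. The part of length in the calls was not tested.

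Genes that act with these families were described from 5 lists, to be read against the 17.8% of all genes past the limits. Of 10 analysed partners of S100a10 and annexin A2, which include the plasminogen system, none was past the limits. Ctsb, a protease that binds annexin A2 with S100a10, was at 1356 FPKM and 968 FPKM, a ratio of 0.714 within the limits, and was named after its values were seen.

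Of 9 analysed receptors of S100 proteins and annexins, 2 were lower in KO. They were Cd36, a scavenger receptor, with 13.2 in WT and 5.23 FPKM in KO (ratio 0.397, 0.331 to 0.474), and Fpr1, a formyl peptide receptor at 1.00 FPKM and 0.176 FPKM from about 11 and 2 fragments. Fpr1 and Ager, the receptor RAGE, were named after their values were seen. Ager was below the minimum, at 0.517 FPKM and 0.514 FPKM. The receptors bind many other ligands, and Cd36 is also a gene of microglia and endothelium, whose summed markers in WT and KO were 488 and 403 FPKM and 41.7 and 29.9 FPKM. Most of the endothelial sum was Cdh5, at 31.8 and 16.1 FPKM, while Pecam1 had a ratio of 1.72 and the median log2 ratio of the 5 analysed endothelial genes was 0.52. The part of these cells in the lower call was not tested.

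Of 20 analysed target proteins of S100 proteins, 1 was higher, 1 was lower and 18 were within the limits. Ezr, or ezrin, which links membranes to actin, was at 114 in WT and 179 FPKM in KO (ratio 1.57). Capza1, an actin capping subunit, was at 49.2 FPKM in WT and had no row in KO, so that the rule counted it as lower. A missing row does not measure a level of 0. Chtop also had no row in WT, but there the row of S100a1 covers it. No row of another gene overlapped the locus of Capza1 in KO, and the reason for its missing row was not tested. Of 19 genes of membrane repair, 18 were within the limits. The exception was Trim72, a membrane repair protein best known from muscle, at 0.0911 FPKM from about 2 fragments in WT and at 9.55 FPKM in KO.

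Of 27 other EF-hand genes, 5 were higher, 2 were lower and 20 were within the limits. S100b was at 29.3 in WT and 51.7 FPKM in KO (ratio 1.77, 1.55 to 2.01), a ratio above that of every S100 member over 20 FPKM, and its locus was overlapped in WT by the end of the row of Dip2a. With Dip2a, at 9.52 and 10.6 FPKM, summed with S100b in each library, a sum added once the values were known, S100b came to a ratio of 1.61. The troponin C genes Tnnc1, with 2.38 FPKM and 24.7 FPKM, and Tnnc2, listed in KO only at 13.5 FPKM, were higher in KO. Cetn3, a centrosome protein, was at 43.5 FPKM and 65.3 FPKM, just above the upper limit. Rcn3, a protein of the secretory pathway, was at 129 FPKM and 83.9 FPKM, a ratio of 0.650. Efhd1 and Tchh, which were below 5 FPKM and were named after their values were seen, had ratios of 1.55 and 0.357.

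**Figure D5:**
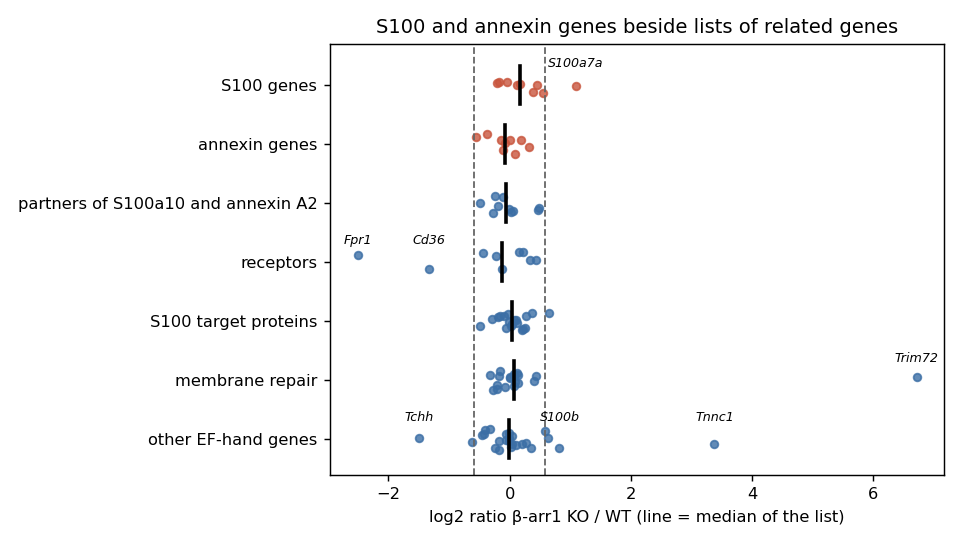
Log2 ratio of β-arr1 KO to WT for each analysed gene listed in both tables, for the S100 genes, the annexin genes and the 5 lists of related genes, with a black line at the median of each list. Dashed lines are the limits 3/2 and 2/3, and some of the genes past them are named. The annexins all lie between the lines, and in the group of S100 genes, which leaves out S100b, only S100a7a lies beyond them. Trim72 and Tnnc1 lie far to the right.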

How the data were processed

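Cultured DG astrocytes were profiled with 1 library per genotype, WT and β-arr1 KO, grouped by their labels. The authors aligned read pairs of 100 bases to mm9 with TopHat (1.4.0, per the submitters' processing notes) and ran Cufflinks, and they deposited 1 table of FPKM values per library. The Cufflinks version, settings and annotation are not given in the sources used here.

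Here, tables were joined by symbol, keeping the row with the highest FPKM, and 1 was added to each start. Ratios used no pseudocount, only genes that reached 1 FPKM in either library and limits of 3/2 and 2/3, and genes with a row in 1 table counted as past the limit. Depth was estimated from genes under 0.15 FPKM with 1 annotated transcript over 1000 bases. Of 416 such genes in WT and 435 in KO, 69.2% and 69.9% lay within 5% of a step of at most 3 fragments, with 170 bases taken off each length. Fragments used the longest coding transcript. The floor was 3 fragments. Promoters came from NCBIM37 and GENCODE. The members and lists were chosen with earlier results of these data known. All members with a row were named, and of other lists the genes past the limits at 5 FPKM or more, or else the highest gene, of which 1 is not reported here. Alternatives were other scalings, pseudocounts, minima, limits and row treatments. Scripts were tested on simulated data. Computing used scipy 1.17.1, numpy 2.4.6, matplotlib 3.10.9 and pandas 2.3.3 in Python 3.11.15.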

Additional observations from a re-analysis of the deposited data

How the results depend on the processing

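The 3 members past the limits became 5 at a minimum of 0.1 FPKM, 6 with no minimum, 1 at a minimum of 5 FPKM or of 1 FPKM in both libraries, and 0 among genes with the same row bounds, where a gene listed in 1 table is left out by construction. The genes of the related lists past the limits, 12 in all, became 7 with limits of 2 and 1/2, 7 at 1 FPKM in both libraries, 24 with no minimum and 7 with the same bounds. Among all genes the count of 2256 became 1163 with limits of 2 and 1/2, 3969 at a minimum of 0.1 FPKM, 1372 at 1 FPKM in both libraries, 1179 at 5 FPKM, 4830 with no minimum and 1015 with the same bounds. These settings change which genes are counted or the limit itself. The median log2 ratio of the members, 0.04, was between -0.05 (same bounds) and 0.05 (equal sums), and 0.09 with overlapping rows summed, so its sign was not stable. Of 116 single-gene values under other scalings, pseudocounts and sums of rows, 115 moved by less than their counting interval, and S100a1 moved from 0.870 to 1.07 with overlapping rows summed. With equal upper quartiles Anxa4 passed the lower limit, at 0.667, and made the count of members 4. In alternatives chosen after seeing the data, summing overlapping rows put 10 instead of 9 members above 1 and raised the level of S100a1 relative to S100a13 in KO from 1.56 to 1.92, and summing Dip2a with S100b gave 1.61 instead of 1.77. S100a7a stayed between 1.96 and 2.14. Depth limits S100a5, S100a8, S100a14, S100g and Anxa10, the joined KO row limits S100a3, and FPKM files give no replicate error.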
